A study of Homo sapiens with 4 samples.

Results

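Among the places where both control libraries of HL-60 cells had open chromatin, 4309 still had an ATAC-seq peak in ATRA replicate 2 and none in ATRA replicate 1. These kept regions were selected on the peak calls themselves: the peaks of the 4 deposited lists were merged into 78063 regions wherever they shared at least 1 bp, and a region was taken when both control lists and the list of ATRA replicate 2 had a peak in it and the list of ATRA replicate 1 had none. They formed 13.9% (95% Wilson interval 13.5 to 14.2) of the 31091 regions with a peak in both control lists, and 5.52% of all merged regions. ATAC-seq uses the Tn5 transposase, which cuts accessible DNA and leaves sequencing adapters there. HL-60 is an established human line, which the labels derive from peripheral blood of an acute promyelocytic leukemia. The ATRA group received 1 µM all-trans retinoic acid (ATRA) for 4 days and the control group received its ethanol solvent for the same 4 days, with 2 replicates of each, and no line, genotype or other agent differed between the groups. All values therefore come from cultures of a single leukemia line and of a single time point.

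ATRA binds the retinoic acid receptors and drives HL-60 cells from a promyelocyte-like state towards granulocytes. Open chromatin in such cells carries the short DNA motifs of the proteins that bind there. GATA factors such as GATA2 act in stem and progenitor cells and in the erythroid, megakaryocyte and mast cell lineages, whereas PU.1, RUNX and CEBP factors act in myeloid cells. CTCF is an insulator protein that anchors chromatin loops together with the cohesin complex and is bound at many sites that are shared between cell types.

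The sequences below show the kept regions with the highest mean control rank for the CTCF, GATA, CEBP and RUNX motifs, a kept region with a CTCF motif that ranked high in ATRA replicate 2, the kept region that ranked furthest below its control rank in ATRA replicate 2, and, for comparison, the highest-ranking fully lost regions with GATA and CTCF motifs. Fully lost regions had a peak in both control lists and in neither ATRA list. Each line gives the 200 bp about the centre of the control peaks on the plus strand of GRCh37 (hg19), 5′ to 3′, with the match to the named motif in capitals on whichever strand it fell.
Kept region nearest to AP1S3, CTCF, chr2:224644694-224644893: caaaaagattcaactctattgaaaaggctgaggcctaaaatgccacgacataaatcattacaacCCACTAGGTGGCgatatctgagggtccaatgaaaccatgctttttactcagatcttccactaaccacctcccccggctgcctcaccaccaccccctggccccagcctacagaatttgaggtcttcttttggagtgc
Kept region nearest to BMT2, CTCF, chr7:112509276-112509475: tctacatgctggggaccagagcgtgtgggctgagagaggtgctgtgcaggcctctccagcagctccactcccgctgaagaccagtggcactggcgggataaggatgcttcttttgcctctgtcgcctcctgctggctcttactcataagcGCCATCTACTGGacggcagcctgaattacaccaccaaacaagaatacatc
Kept region nearest to NR5A2, GATA, chr1:200123393-200123592: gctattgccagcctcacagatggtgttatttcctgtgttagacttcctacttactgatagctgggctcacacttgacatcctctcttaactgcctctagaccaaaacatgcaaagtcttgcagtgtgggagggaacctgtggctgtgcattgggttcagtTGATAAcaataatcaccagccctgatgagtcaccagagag
Kept region nearest to TNIK, GATA, chr3:171076859-171077058: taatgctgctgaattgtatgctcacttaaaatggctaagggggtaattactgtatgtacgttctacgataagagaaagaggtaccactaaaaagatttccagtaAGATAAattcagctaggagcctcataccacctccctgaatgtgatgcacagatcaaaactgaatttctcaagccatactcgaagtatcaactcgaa
Kept region nearest to COPZ1, CEBP, chr12:54698133-54698332: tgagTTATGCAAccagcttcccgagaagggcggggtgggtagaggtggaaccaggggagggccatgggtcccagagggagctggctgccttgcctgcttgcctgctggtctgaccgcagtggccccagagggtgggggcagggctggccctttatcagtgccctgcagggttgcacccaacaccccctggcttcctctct
Kept region nearest to TM9SF2, RUNX, chr13:100072633-100072832: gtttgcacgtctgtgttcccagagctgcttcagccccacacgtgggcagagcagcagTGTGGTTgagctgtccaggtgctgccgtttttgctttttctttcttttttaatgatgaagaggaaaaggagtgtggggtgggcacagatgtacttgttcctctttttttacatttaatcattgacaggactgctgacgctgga
Fully lost region nearest to IRF2BP2, GATA, chr1:234694191-234694390: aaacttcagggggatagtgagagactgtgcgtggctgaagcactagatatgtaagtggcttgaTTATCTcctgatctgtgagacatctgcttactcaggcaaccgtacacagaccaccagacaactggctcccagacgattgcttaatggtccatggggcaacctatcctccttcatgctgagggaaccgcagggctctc
Fully lost region nearest to FBXL13, CTCF, chr7:102706229-102706428: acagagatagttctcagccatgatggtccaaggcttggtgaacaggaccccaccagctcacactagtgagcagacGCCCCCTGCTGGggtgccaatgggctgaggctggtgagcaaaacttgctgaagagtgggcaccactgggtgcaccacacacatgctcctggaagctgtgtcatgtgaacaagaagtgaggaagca

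The region nearest to AP1S3 lay in an intron, 57407 bp from the nearest transcription start site (TSS) of a protein-coding transcript, and its CTCF match was on the plus strand. The intronic region nearest to BMT2 held its CTCF match on the minus strand. The regions nearest to NR5A2, TNIK and COPZ1 were also intronic by the annotation, whereas that nearest to TM9SF2 was intergenic. The fully lost region with GATA was intergenic, 50980 bp from a TSS of IRF2BP2, and that with CTCF was intronic, 8686 bp from a TSS of FBXL13.

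The 4 lists differed in length and peak width. ATRA replicate 2 had 63541 peaks, against 42081 to 45903 in the other libraries, and a median peak width of 416 bp against 291 to 328 bp. The lists hold no read counts, so the depth of the libraries was unknown, and a longer list and a real retention of peaks cannot be told apart from these files. As a check of the cell type, promoter peaks were present at 5 to 7 of 10 myeloid marker genes in each list, although AZU1 and ELANE had none in any of them. None of the 5 erythroid marker genes had a promoter peak, 0 to 2 of 5 B cell genes and 0 to 1 of 5 epithelial genes did, and CD8A was the only T cell gene with one.

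Most control regions that lacked a peak in ATRA replicate 1 were kept in replicate 2. Of the 6942 control regions with no peak in ATRA replicate 1, 62.1% (60.9 to 63.2) had one in ATRA replicate 2. In the other direction, 496 of 3129 control regions with no peak in ATRA replicate 2 (15.9%, 14.6 to 17.2) had one in ATRA replicate 1. The mirror class of regions kept in ATRA replicate 1 only was thus much smaller than the class described here, and 2633 regions were fully lost. When the list of ATRA replicate 2 was limited to as many of its best-scoring peaks as ATRA replicate 1 had, 2834 kept regions remained.

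The edges of the class were sharp in position and gradual in score. The nearest peak of ATRA replicate 1 lay a median of 16426 bp away, and only 29 kept regions (0.673%) had one within 100 bp. The control peaks of a kept region overlapped each other in 99.5% of cases, and the ATRA replicate 2 peak overlapped the control replicate 1 peak in 99.7%. Regions were built from peaks that share at least 1 bp, so this overlap follows largely from the rule. The deposited scores started at 50.0, and 257 kept regions had a score under 55 in ATRA replicate 2, with a lowest value of 50.04. Among the regions with a peak in all 4 lists, just outside the class, a single region owed its ATRA replicate 1 peak to an overlap of 20 bp or less.

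Kept regions were peaks of low to middle rank in every list that held them. The score rank was expressed as a percentile within each list, so that a higher percentile means a higher score. The median percentile of the kept regions was 37.0 in control replicate 1, 47.0 in control replicate 2 and 42.0 in ATRA replicate 2. The ATRA replicate 2 value thus lay between the values of the control replicates. The median difference between the mean control percentile and the ATRA replicate 2 percentile of a region was -0.857 points (middle 50% of the regions, -17.24 to 16.65), and 48.8% of the kept regions ranked higher in the controls. This difference was smaller than that between the control replicates, whose median was 7.03 points in favour of replicate 2. Its direction depended on the control library, with -4.03 points for control replicate 1 minus ATRA replicate 2 and 2.74 points for control replicate 2 minus ATRA replicate 2. The class was selected on the same peak calls, so these values carry no test.

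The direction of that rank difference depended on which peaks were ranked. ATRA replicate 2 had the longest list, and a percentile depends on all peaks of its list. When the percentile was taken only among peaks of the regions shared by both controls, the kept regions ranked a median of 11.8 points higher in the controls than in ATRA replicate 2. With the 42081 best-scoring peaks of each list the difference was 10.2 points. The fully lost and mirror regions hold control peaks but, by definition, no ATRA replicate 2 peak, so only the control ranks count them. Cutting the longest list to its best-scoring peaks removes its lowest peaks and so lowers the percentile of those left. Both shifts thus follow at least in part from the settings, and how much was not tested. Against the regions with a peak in all 4 lists, kept regions stood low in ATRA replicate 2: 38.1% of them reached the upper 50% of its list, compared with 86.7% of the regions shared by all 4 lists, whose median percentile was 79.2. Only 232 kept regions (5.38%) reached a percentile of 75, and 2 reached 90.

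**Figure D1:**
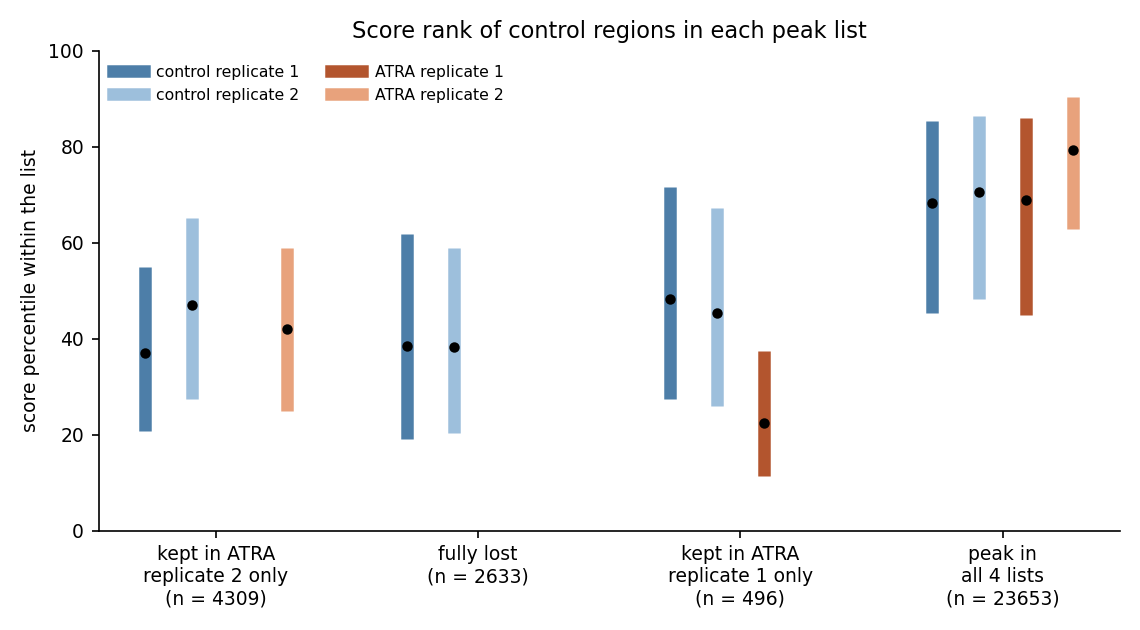
Score percentile within each peak list (vertical axis) for 4 classes of control region. Dots are medians over regions and bars span the middle 50% of the regions; lists without a peak in a class have no bar. Kept regions had medians from 37.0 to 47.0, regions with a peak in all 4 lists from 68.2 to 79.2, and the mirror class fell to 22.4 in ATRA replicate 1.

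Fully lost regions had a median percentile of 38.5 in control replicate 1 and 38.4 in control replicate 2. They thus stood close to the kept regions in replicate 1 and below them in replicate 2. In the mirror class, the median percentile was 48.2 and 45.3 in the controls and 22.4 in ATRA replicate 1, a median fall of 21.6 points. Kept regions were narrow in the controls, with median peak widths of 275 and 265 bp, and the ATRA replicate 2 peak was wider than both control peaks in 67.7% of them. Wider ATRA replicate 2 peaks were not particular to the class. In regions with a peak in all 4 lists the median width was 581 bp in that library, against 389 and 363 bp in the controls.

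Single regions showed the range behind these medians. The kept region with the highest mean control percentile lay in an intron, 95669 bp from a TSS of COMMD8, and ranked at 99.1 and 98.6 in the control lists and at 31.6 in ATRA replicate 2. The region 26163 bp upstream of SUB1, which encodes a transcriptional coactivator, stood at 96.8 and 98.25 in the controls and remained fairly high in ATRA replicate 2, at 71.2. Strong control peaks could thus be kept at ranks that lay far apart in ATRA replicate 2. The steepest fall was that of the region nearest to TNIK, from 95.55 and 92.6 in the controls to 0.981 in ATRA replicate 2, where its score of 50.6 was just above the lowest score of the list. The other 4 of the 5 steepest falls, nearest to SLC10A2, GDF2, ITM2A and PCDH9, ranged from 83.4 to 90.2 points. All 5 held a GATA match, and those nearest to ITM2A and PCDH9 also held a RUNX match.

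Other kept regions ranked higher in ATRA replicate 2 than in the controls. An intergenic region 41765 bp from a TSS of PSMA6, a proteasome subunit gene, rose from percentiles of 5.83 and 36.9 in the controls to 91.75, the highest ATRA replicate 2 percentile of the class. The region nearest to BMT2, whose CTCF match is shown above, had 39.7 and 84.7 in the controls and 89.6 in ATRA replicate 2. A region of the HOXA cluster, 3415 bp upstream of HOXA7, had 41.0 and 70.4 in the controls and 88.3 in ATRA replicate 2. HOXA7 and its neighbour HOXA9 encode homeobox factors that are active in immature blood cells and in many leukemias. The ATRA replicate 2 percentile was above both control values in these 3 regions, although the control replicates were themselves far apart.

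Kept regions differed from fully lost regions most in their GATA and CTCF motifs. A GATA match (AGATAA or TGATAA on either strand within 200 bp) was present in 907 kept regions, 21.05% (19.86 to 22.29), and in 44.1% (42.2 to 46.0) of the fully lost regions. The difference was -23.1 percentage points (95% Newcombe interval -25.3 to -20.8). A CTCF match was present in 515 kept regions, 11.95% (11.02 to 12.95), compared with 2.74% (2.18 to 3.43) of the fully lost regions, a difference of 9.22 points (8.05 to 10.4). Kept regions therefore had fewer GATA and more CTCF matches than the fully lost regions. Of all 78063 merged regions, 18.8% held a GATA match and 6.06% a CTCF match. Intervals cover counting error over regions only, and regions are not replicates of the treatment.

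The GATA difference depended in size on control replicate 1. When regions were defined without that library, it was -11.8 points (-13.2 to -10.4), and without control replicate 2 it was -19.9 points. The CTCF difference was 7.80 and 8.13 points in these settings. With the letters of the GATA motif reversed, which keeps its base composition, the difference was -2.54 points (-4.32 to -0.804). The reversed CTCF motif was found in 0 kept and 0 fully lost regions, which allows shares of up to 0.0696% and 0.114% (3 counts of the total).

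Kept regions also had fewer matches to the myeloid motifs than fully lost regions. RUNX (AACCACA) was found in 9.21% of kept and 15.3% of fully lost regions, a difference of -6.13 points (-7.78 to -4.53). For CEBP (TTGCNNAA) the shares were 11.2% and 15.9%, a difference of -4.68 points (-6.39 to -3.02). For AP-1 (TGACTCA or TGAGTCA) they were 4.94% and 7.86%. Of all merged regions, 8.80% held RUNX, 12.5% CEBP and 5.90% AP-1. The kept shares were thus near or below these values, and the fully lost shares were above them. The PU.1 motif (GAGGAAGT) differed by less, with 7.47% against 8.96% and an interval of the difference from -2.86 to -0.170 points that included 0 when either control replicate was left out. Its share of all merged regions was 9.24%. Without control replicate 1 the RUNX difference was -1.80 points and the CEBP difference -2.81 points, and without control replicate 2 they were -4.52 and -2.75 points. For AP-1 the difference was -2.92 points, and -1.73 points (-3.19 to -0.343) among windows of 40 to 60% GC. For the E-box (CACGTG) and ETS (CCGGAAGT) motifs the interval of the difference included 0, except that with peaks set to 200 bp the E-box difference was -0.980 points (-1.95 to -0.0508) and with scores of at least 100 the ETS difference was 0.700 points (0.170 to 1.23). IRF was at 2.34% and 1.63%, and the direction of that small difference turned under 2 other settings. In total 44.1% of kept and 28.4% of fully lost regions held none of the 9 motifs.

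**Figure D2:**
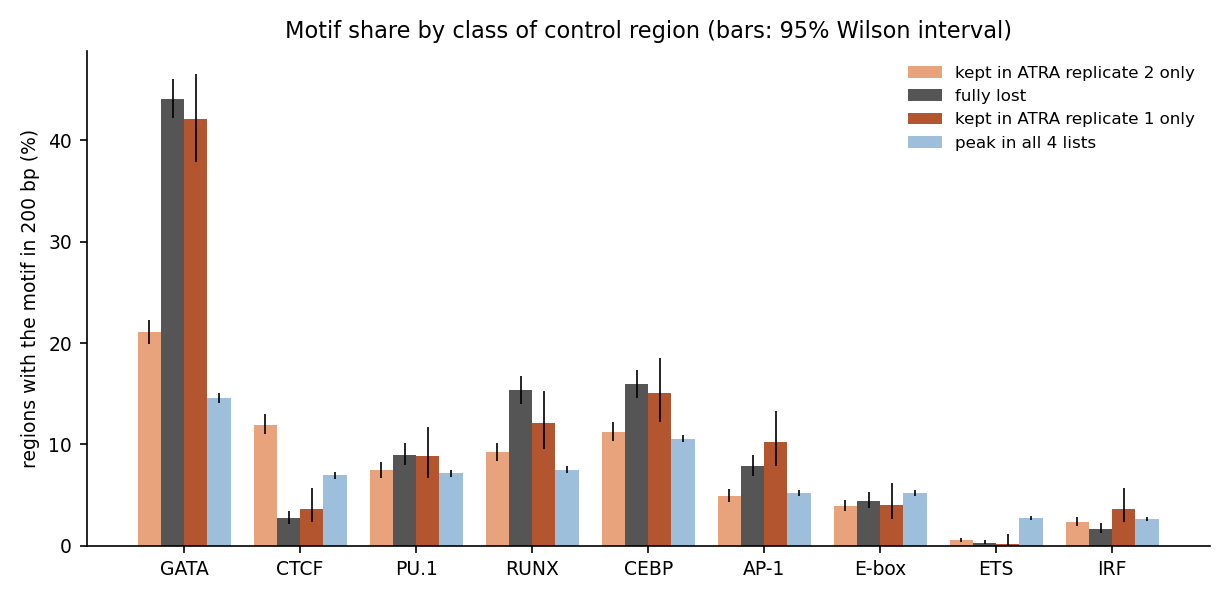
Share of regions with each of 9 motifs within 200 bp of the centre of the control peaks, for 4 classes of control region; error bars are 95% Wilson intervals over regions. GATA reached 44.1% in fully lost and 42.1% in regions kept in ATRA replicate 1 only, against 21.05% in kept regions, and CTCF was highest, at 11.95%, in kept regions.

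The combination of motifs differed as well. A kept region held 2 or more GATA matches in 3.43% of cases, compared with 13.7% of the fully lost regions. A GATA match together with a PU.1, RUNX or CEBP match was found in 5.96% of kept and 16.3% of fully lost regions. In regions with a peak in all 4 lists these shares were 2.31% and 4.55%. Both shares include the GATA share itself. Among regions with a GATA match, 28.3% of kept and 36.9% of fully lost regions also held PU.1, RUNX or CEBP, against 31.2% in all 4 lists. CTCF and GATA occurred together in 74 kept regions (1.72%) and in 10 fully lost regions. The median GC content of the windows was 48.0% in kept and 46.5% in fully lost regions, and among windows of 40 to 60% GC the GATA and CTCF differences were -21.8 and 8.67 points.

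In their GATA and CTCF shares, the regions kept in ATRA replicate 1 only were closer to the fully lost regions than to the kept regions. They held GATA in 42.1% (37.9 to 46.5) and CTCF in 3.63% (2.31 to 5.66). Kept regions had 21.1 points less GATA (interval of the difference -25.6 to -16.6) and 8.32 points more CTCF (6.08 to 9.98) than this mirror class. For PU.1, E-box, ETS and IRF the interval of the difference between kept regions and the mirror class included 0. Regions with a peak in all 4 lists had less GATA, 14.6%, and also less CTCF, 6.93%, than kept regions. The kept class thus had a higher CTCF share than each of the other 3 classes of control region.

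Within the kept class, both shares moved with the rank in ATRA replicate 2. The kept regions were divided into 4 groups of nearly equal size by that percentile. From the lowest to the highest group the CTCF share was 7.61%, 10.7%, 13.7% and 15.8%, and the GATA share was 26.2%, 22.1%, 20.1% and 15.9%. Kept regions with a CTCF match had a median percentile of 49.8 in ATRA replicate 2, against 41.0 without one, whereas those with a GATA match had 37.5 against 43.5. In control replicate 1 the order was the opposite, with 31.7 for regions with CTCF and 40.9 for regions with GATA. In control replicate 2 the medians lay close together, at 47.5 with CTCF and 47.6 with GATA, against 46.9 without the match in each case. Kept regions with a RUNX match resembled those with GATA, at 43.5 and 49.1 in the controls and 38.25 in ATRA replicate 2.

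**Figure D3:**
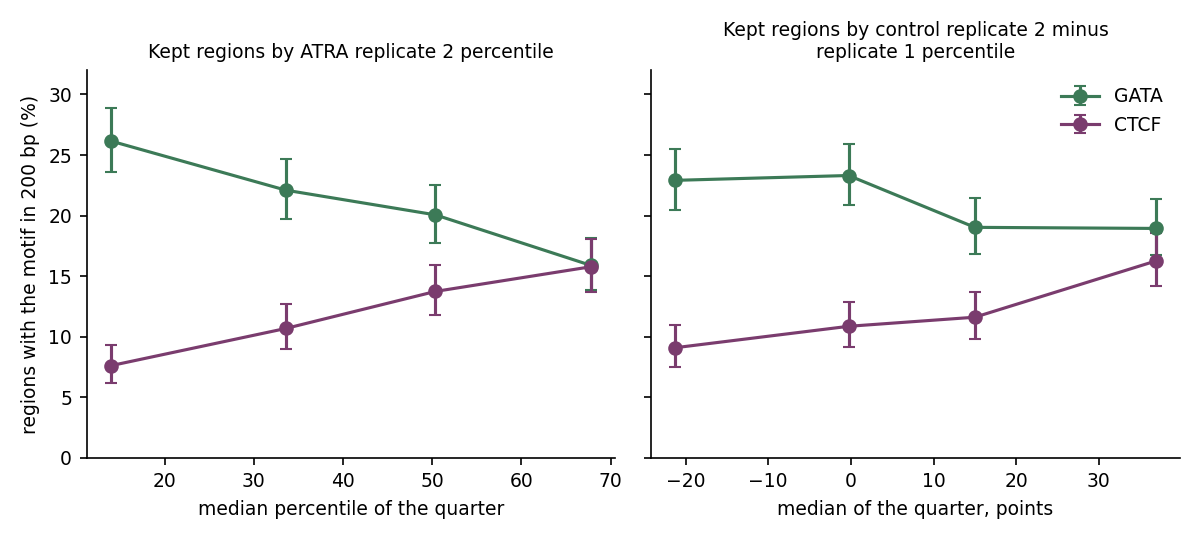
Share of kept regions with a GATA or CTCF match in 4 groups of nearly equal size, ordered by the ATRA replicate 2 percentile (left) or by the control replicate 2 minus control replicate 1 percentile (right). Points stand at the median of each group and bars are 95% Wilson intervals; CTCF rose from 7.61% to 15.8% on the left and from 9.09% to 16.2% on the right.

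The CTCF share moved with a difference between the control replicates too. When kept regions were ordered by how much higher they ranked in control replicate 2 than in control replicate 1, the CTCF share was 9.09% in the lowest group and 16.2% in the highest. Regions with a peak in all 4 lists, which the rule of the class did not use, gave the same direction. In those with a CTCF match, the median percentile was 47.9 in ATRA replicate 1 and 71.7 in ATRA replicate 2, and 51.4 in control replicate 1 and 65.9 in control replicate 2. The libraries numbered 2 thus ranked CTCF regions higher in both treatment groups. The median within-region difference was 19.9 points between the ATRA replicates, compared with 5.50 points for regions without CTCF, and 12.3 points between the control replicates, compared with 0.652 points. The part of this difference between libraries in the CTCF share of the kept regions was not tested.

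The same appeared in regions outside the class. The CTCF share was 11.97% in the 4042 regions with a peak only in ATRA replicate 2 and control replicate 2, and 2.78% in the 539 regions with a peak only in ATRA replicate 1 and control replicate 1. It was 9.81% in regions that lacked only a control replicate 1 peak and 4.07% in those that lacked only a control replicate 2 peak. A high CTCF share was therefore not particular to regions that were open in both controls. The GATA share was 44.1% in regions with a peak in both controls only, 39.7% in control replicate 1 only and 24.2% in control replicate 2 only. It was 26.35% in regions with a peak only in ATRA replicate 1 and control replicate 1. In those with a peak only in ATRA replicate 2 and control replicate 2 it was 17.96%. Here the GATA share was higher for the libraries numbered 1, the opposite direction to CTCF. Other sets showed little gap. Regions that lacked only a control replicate 1 peak had 15.0%, and those that lacked only a control replicate 2 peak had 14.6%. With a peak in ATRA replicate 1 only the share was 17.1%, and in ATRA replicate 2 only 16.8%.

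**Figure D4:**
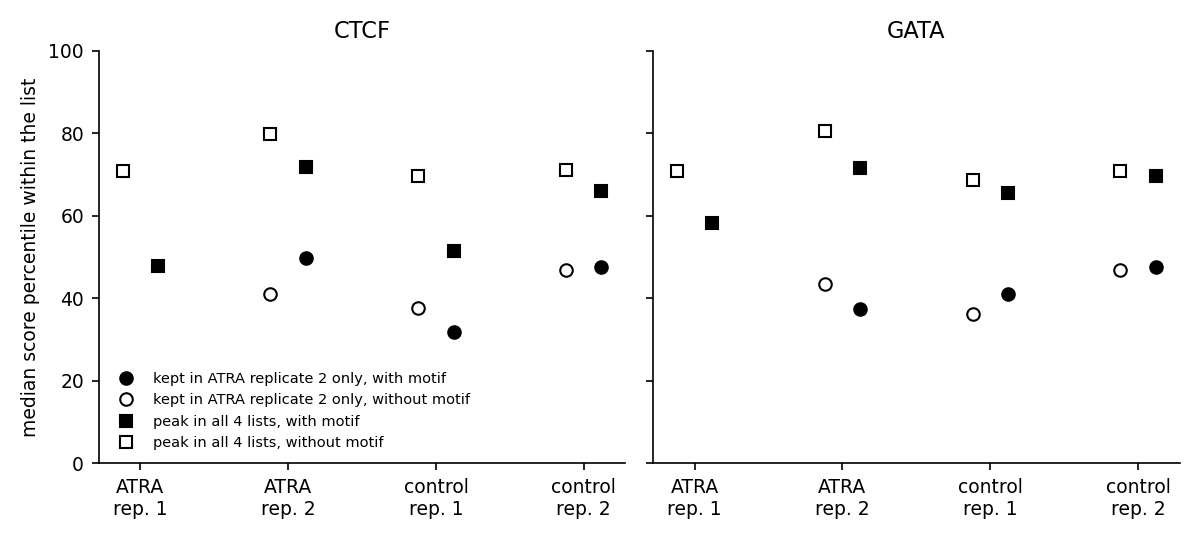
Median score percentile in each list for regions with (filled) and without (open) a CTCF match (left) or a GATA match (right); circles are kept regions, which have no ATRA replicate 1 peak, and squares are regions with a peak in all 4 lists. Filled squares for CTCF stand at 71.7 and 65.9 in the libraries numbered 2 and at 47.9 and 51.4 in those numbered 1.

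Kept regions were mostly distal. Regions were assigned to a promoter when the centre of their control peaks fell in the 1 kb before or the 100 bp after a protein-coding TSS. Such regions formed 4.87% (4.27 to 5.56) of kept regions and 4.48% (3.755 to 5.34) of fully lost regions, a difference of 0.392 points whose interval, -0.658 to 1.39, included 0. The direction was not stable, since with every peak set to 200 bp the difference was -2.71 points and with scores of at least 100 it was 3.30 points. Regions with a peak in all 4 lists were in promoters in 30.7% of cases. Of the kept regions 43.7% were intronic, 49.6% intergenic and 6.73% exonic, and the median distance to a TSS was 29435 bp, against 32460 bp in fully lost and 12033 bp in regions shared by all 4 lists.

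Genes near kept regions were listed next. A gene was linked to a region within 50 kb of any of its TSS. In all, 4248 of 19794 protein-coding genes (21.5%) had a kept region in that range and 2569 (13.0%) had a fully lost one, while 1601 kept regions (37.2%) had no protein-coding gene so close. A total of 782 genes had a region of each kind, which is 18.4% of the former genes and 30.4% of the latter. Of 139 genes in 8 lists of genes for this cell type, 42 (30.2%) had a kept and 35 (25.2%) a fully lost region. Listed genes had many control regions of any kind, and of the 411 control regions within 50 kb of them 12.4% (9.57 to 15.9) were kept, compared with 12.3% for all protein-coding genes. The kept share near listed genes was therefore that of the background, while the fully lost share was 12.4% near listed genes and 7.28% near all genes.

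**Figure D5:**
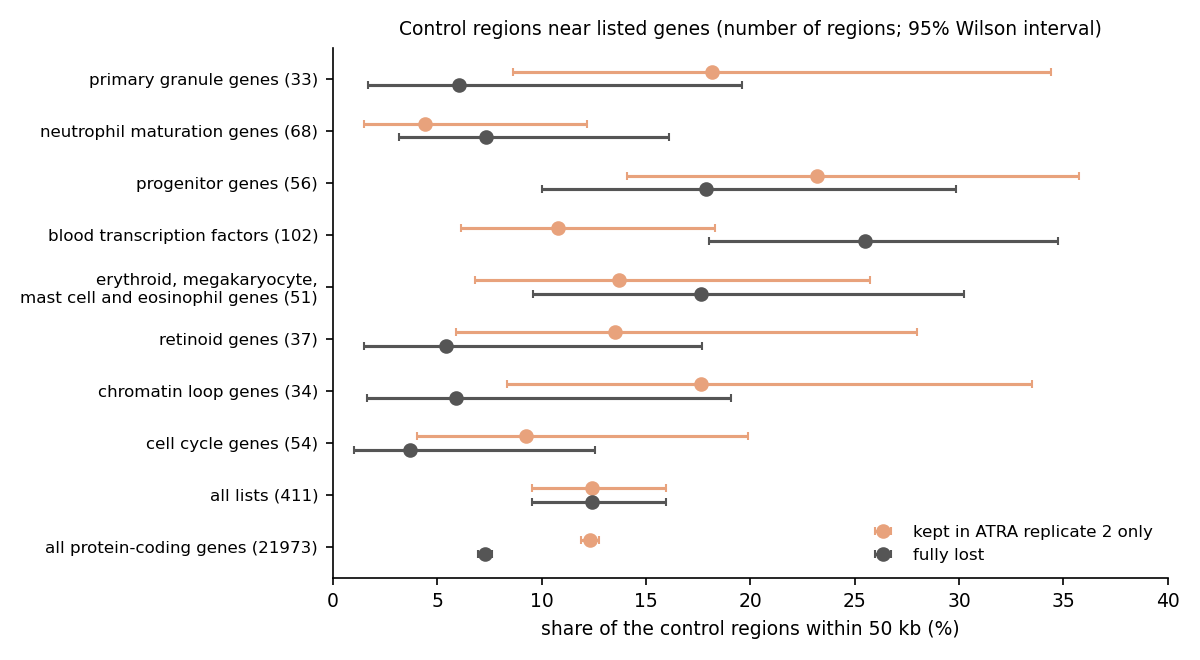
Share of the control regions within 50 kb of a TSS of the listed genes that were kept in ATRA replicate 2 only or fully lost; the number of control regions stands beside each list and bars are 95% Wilson intervals. For blood transcription factors 10.8% were kept and 25.5% fully lost, and for all lists together both shares were 12.4%.

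For the single lists, the shares over all protein-coding genes serve as background: 21.5% of genes had a kept and 13.0% a fully lost region, and 12.3% of the control regions near genes were kept and 7.28% fully lost. Of 28 blood transcription factors 10 had a kept region and 15 a fully lost one. Of the 102 control regions near them 10.8% (6.13 to 18.3) were kept, which is the background share within its interval, and 25.5% (18.0 to 34.7) were fully lost. The gene of ZBTB16, a zinc finger repressor of immature cells, and GATA2 had fully lost and no kept regions. The kept region near NFE2, a factor of megakaryocyte and erythroid cells, lay 3434 bp upstream of a TSS of this gene and 3247 bp downstream of one of COPZ1, and held the CEBP match shown above and a GATA match. It ranked at 94.9 and 94.8 in the controls and at 45.6 in ATRA replicate 2. Within SPI1, which encodes PU.1, an intronic region 18557 bp from a TSS ranked at 67.8 and 74.7 in the controls and at only 2.51 in ATRA replicate 2. Both regions thus kept a peak at a much lower rank than in either control.

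Progenitor genes had kept regions in 8 of 16 cases, with as many for fully lost regions and 6 genes that had both. Of the 56 control regions near these genes 23.2% (14.1 to 35.8) were kept, above the 12.3% for all genes. The fully lost share, 17.9% (10.0 to 29.8), was also above its value for all genes, 7.28%. MYB, which keeps blood progenitors dividing, had a kept region 31976 bp upstream at 87.9 and 90.3 in the controls and 44.01 in ATRA replicate 2. A further region in its intron went from 20.8 and 3.76 to 40.02, so the kept regions of this gene did not move together. CD34, a surface marker of stem and progenitor cells, had a region 12454 bp upstream with a GATA match at 70.7, 85.8 and 79.6 in control replicate 1, control replicate 2 and ATRA replicate 2. BCL2, an inhibitor of apoptosis, had 3 kept regions with ATRA replicate 2 percentiles of 51.0, 61.5 and 5.82. The promoter region of GFI1, a repressor needed for neutrophil development, was at 35.7, 0.619 and 17.7, and that of SPN, a sialoglycoprotein of leukocytes, at 38.2, 3.55 and 23.3. The control replicates stood far apart at both promoters.

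Of 12 primary granule genes 5 (41.7%) had a kept region, and 18.2% (8.61 to 34.4) of the 33 control regions near them were kept, an interval that holds the background of 12.3%. Among these genes was MPO, which encodes myeloperoxidase and had 2. The region 3930 bp upstream of a TSS of MPO was at 45.2 and 39.1 in the controls and 51.5 in ATRA replicate 2 and held a CEBP match. The other, 23659 bp downstream of a different TSS of MPO, went from 58.7 and 79.0 to 20.7. BPI, a bactericidal protein gene, had a region with a CEBP match 5214 bp upstream that went from 76.3 and 88.1 to 47.7. Of 28 neutrophil maturation genes, 4 (14.3%) had a kept region, namely FCGR2A, TLR2, CXCR1 and CXCR2. Only 3 of the 68 control regions near the maturation genes were kept, 4.41% (1.51 to 12.2). The upper limit of that interval lay just under the background of 12.3%. These intervals of the granule and maturation lists overlapped, and the lists were not compared by a test. CXCR1 and CXCR2, the interleukin-8 receptors, shared a region at the CXCR1 promoter with a RUNX match, which stood at 18.98, 79.65 and 12.61. Its rank in control replicate 2 was thus far above that in the other 2 libraries.

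In the erythroid, megakaryocyte, mast cell and eosinophil list, 6 of 19 genes had a kept region and 6 a fully lost one, and 4 genes had both. Of the 51 control regions near them 13.7% (6.81 to 25.7) were kept, close to the background of 12.3%, and 17.6% (9.57 to 30.3) were fully lost, against 7.28% for all genes. The eosinophil receptor gene CCR3 had a kept promoter region with a CEBP match, at 27.65 and 66.5 in the controls and 70.9 in ATRA replicate 2. Kept regions near PRG2 (eosinophil major basic protein) and MS4A2 (a chain of the IgE receptor of mast cells) held GATA matches and had ATRA replicate 2 percentiles of 59.0 and 61.8. Both regions ranked higher in ATRA replicate 2 than in control replicate 1, where they stood at 26.7 and 54.4, while in control replicate 2 they stood at 11.5 and 54.0. Each of these 3 genes also had fully lost regions within 50 kb, with 4 near PRG2, 1 near MS4A2 and 1 near CCR3. Of 17 retinoid genes 5 (29.4%) had a kept region, and 13.5% (5.91 to 28.0) of the control regions near them were kept, which is close to the background. These 5 were the receptors RARG and RXRA, the binding proteins CRABP1 and CRABP2 and CYP26B1, which breaks down retinoic acid. The CYP26B1 region, 2651 bp upstream, went from 33.2 and 40.8 to 73.8, and the RXRA region from 17.9 and 29.6 to 5.56.

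Of 10 chromatin loop genes, 4 had a kept region, which were the cohesin genes RAD21, SMC1A and SMC3 and the cohesin regulator PDS5B. Of the 34 control regions near the listed loop genes 17.6% (8.35 to 33.5) were kept, an interval that holds the background of 12.3%. One of the 2 kept regions near SMC3 held a CTCF match, 20355 bp upstream, at 48.0, 59.1 and 47.3. Of 15 cell cycle genes 4 had one: MKI67, CDK1, MCM3 and MCM5. The kept share of the 54 control regions near the cell cycle genes was 9.26%, with an interval (4.02 to 19.9) that also holds the background. Over all genes, 3567 had a single kept region and PLCG2, a phospholipase of immune receptor signalling, had the most, with 5. These 5 regions held no GATA or CTCF match and had ATRA replicate 2 percentiles from 33.3 to 82.9. A further 16 genes had 4 kept regions each. By the highest control rank, the first of these were KIF2C and MAD1L1, which act in chromosome segregation, TPRG1, DST, RNASE10 and the neighbours APEX1, OSGEP, PIP4P1 and PNP, which had their kept regions in common. None of these named genes had a fully lost region in range.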

How the data were processed

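The data were 4 ATAC-seq peak lists, 2 of ATRA-treated and 2 of control HL-60 cells, grouped by the sample titles. The study describes independent biological replicates. According to the labels and the study's methods, the authors removed adapters, aligned reads to hg19 with Bowtie (the processing notes list Bowtie2) and called peaks in each library with MACS2 at default settings. No Tn5 shift, duplicate removal or blacklist filter is stated. The deposited score (50 to 3100) has no stated scale, was used only to rank peaks within a list, and gives no depth. ATRA-treated and control cells were not compared by a test, since every result describes regions in 4 libraries.

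Peaks that shared at least 1 bp were chained into regions, and the best-scoring peak of each list gave the percentile. Motifs were searched on both strands in 200 bp of GRCh37 about the mean centre of the best control peaks, CTCF and IRF by standard consensus. Genes and 78701 TSS came from GENCODE 44 lifted to GRCh37. Shares have 95% Wilson and differences 95% Newcombe intervals. The code was tested on simulated data. Python 3.11.15, numpy 2.4.6, pandas 2.3.3, scipy 1.17.1, pysam 0.24.0, samtools 1.23.1 and matplotlib 3.10.9 were used.

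The class, the motifs and the gene lists were chosen with earlier results of these data known. Regions were named by rule: the 5 with the highest mean control percentile, the 5 with the highest ATRA replicate 2 percentile, the 5 steepest falls and the best control region for each of 5 motifs. Genes were named from the lists, with the 10 that had the most kept regions. The printed regions nearest to BMT2 and TNIK were chosen after their values were seen. Some items that these rules select are not reported here. Coordinates are 1-based.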

Additional observations from a re-analysis of the deposited data

How the results depend on the processing

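In 13 alternatives, the GATA difference between kept and fully lost regions stayed negative (-25.5 to -11.8 points) and the CTCF difference stayed positive (7.80 to 10.2 points). Among these, leaving out chromosome 8 (-22.8 and 9.20 points) was chosen after seeing the data. With an equal number of peaks per list there were 2679 kept regions, a rank difference of 10.2 points and a GATA difference of -17.8 points. With ATRA replicate 2 cut to the length of the ATRA replicate 1 list the values were 2834, 10.7 and -18.1. With scores of at least 100 they were 1977 regions, 23 listed genes, a GATA difference of -25.5 points and a promoter difference of 3.30 points. With peaks set to 200 bp the GATA difference was -19.1 and the promoter difference -2.71 points. A 400 bp window gave a GATA difference of -19.6 points, and percentiles among peaks of the control regions gave a rank difference of 11.8 points. A link of 10 kb left 15 listed genes. Leaving out a control replicate gave 6287 (without replicate 2) to 8379 (without replicate 1) kept regions, GATA differences of -19.9 to -11.8 points, CTCF differences of 7.80 to 8.13 points, rank differences of -4.35 to 0.556 points, promoter differences of 0.136 to 0.467 points and 49 to 61 listed genes. The IRF difference turned to -0.163 points with scores of at least 100 and to -0.0837 points without control replicate 1 (0.705 without control replicate 2). The causes were not tested. Without an ATRA replicate the class cannot be formed, so these settings gave no value. No paired analysis was possible because kept regions have a peak in ATRA replicate 2 only, so that the groups share a single replicate number in them (control replicate 2 minus ATRA replicate 2, 2.74 points). Unknown depth limits every absence of a peak: a peak missing from a list may be one that was not called.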

Other observations

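Kept regions were spread over the autosomes and chromosome X but not evenly. They formed 19.5% (95% Wilson interval 16.9 to 22.2) of the 853 control regions of chromosome X and 3.45% (2.31 to 5.12) of the 667 of chromosome 19, and 9.17% to 16.2% on the other autosomes. The fully lost share was 9.38% on chromosome X and 2.55% on chromosome 19. On chromosome Y, 5 of only 36 control regions were kept, and whether reads were placed correctly there was not tested. The CTCF share of kept regions was 22.1% on chromosome 16, from 104 regions, and 0 of the 23 kept regions of chromosome 19 held a match, which allows a share of up to 13.0%. Kept regions lay singly: the median distance from a kept region to the nearest other one was 164430 bp, and 4.50% had another within 10 kb, compared with 6.27% of fully lost regions with another fully lost one so close.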
